A study of Mus musculus with 34 samples.

Results

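The conjugating enzymes of mouse kidney were examined as 1 set of genes, chosen by name. Symbols beginning with Gst and a class letter, Mgst, Ugt1 to Ugt3 or Sult, each followed by a number, were taken from the count tables, which gave 62 of 23509 genes. They comprised 21 cytosolic glutathione S-transferases (GST), 3 microsomal GST, 8 UDP-glucuronosyltransferases (UGT) of the UGT1 locus, 12 UGT of families 2 and 3, and 18 sulfotransferases (SULT). Messenger RNA was sequenced from the kidneys of 34 C57BL6 mice on postnatal day (P) 28. UNT mice (n = 12) were untreated non-transgenic wildtype mice. PBS mice (n = 11) and RGLS4326 mice (n = 11) both carried the *Pkd2* knockout, which the labels spell Pdk2KO, and both received subcutaneous injections at P10, at P11, at P12 and again at P19, the former of PBS and the latter of 20 mg per kg of RGLS4326, an oligonucleotide that inhibits the microRNA miR-17. In this model Cre recombinase driven from the *Pkhd1* promoter deletes floxed *Pkd2* alleles in the tubule cells where that promoter is active. Other cells keep the gene, and the labels do not say which tubule segments lose it. The UNT mice differ from both other groups in transgene as well as in cystic disease.

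Conjugating enzymes attach a polar group to drugs, hormones, bile pigments and reactive metabolites so that they can be excreted. GST join glutathione to electrophiles, UGT transfer glucuronic acid from UDP-glucuronate, and SULT transfer sulfate from the donor PAPS. In kidney much of this capacity lies in the proximal tubule, which also secretes the conjugates. Several of these genes lie in clusters of related copies. The UGT1 enzymes are made from 1 locus in which each enzyme has its own first exon and promoter and all share the last exons.

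The clusters set what could be counted. The 7 UGT1 genes with enough reads to test spanned chr1:88055388-88220002 on the plus strand (GRCm38, GENCODE M21), and between 51.2% and 74.8% of their 75-base transcript stretches also occurred in another gene, so their counts rested on reads from exon parts that no other gene shares, since HTSeq leaves out reads that several genes could own. These parts came to 879 to 949 bases in 5 of the 7 genes, and to 1915 in *Ugt1a7c* and 2142 in *Ugt1a6a*. The gene Gm20528 lay on the opposite strand of part of these exons. *Gsta1* shared 84.7% of its stretches with other genes, *Gsta2* among them, *Gsta2* 36.6% with *Gsta1* and other copies, *Gstp2* 50.1% and *Gstp1* 29.2% with each other and a pseudogene, *Ugt2b5* 30.4% and *Ugt2b38* 28% with close copies, and the values of these genes are uncertain for that reason. *Gstt3* overlapped Gm20441 on the same strand. *Gstm5*, *Gstz1*, *Sult1a1* and *Sult2b1* overlapped a gene on the opposite strand, and since no source used here states the strand setting of the counting, reads of those neighbours may be included.

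Promoter sequences are shown for the members whose window held the core of the antioxidant response element. Through this element the factor NRF2 (*Nfe2l2*) activates several GST genes. All 4 such members are GST that differed between PBS and UNT kidneys, as did most genes. Of all 15644 tested genes, 43.1% were higher and 39% lower in PBS. The core was searched on both strands as TGAC and GC separated by 3 bases, in RefSeq windows from 250 bases before to 50 bases after each start. A match was found for 4 of the 54 members with a window (7.41%) and for 14% of all 27025 genes with a window. The stretches below run 5′ to 3′ on the strand of the gene, from 150 bases before to 50 bases after the start (GRCm38.p6), at chr1:21240435-21240634 (plus) for *Gsta3*, chr3:107895704-107895903 (plus) for *Gstm5*, chr3:107931565-107931764 (minus) for *Gstm7* and chr6:138140377-138140576 (plus) for *Mgst1*, with the match in capitals. *Gstm7* and *Mgst1* each had 2 windows, and the one with the match is shown. In both genes this match lies inside the gene as GENCODE M21 draws it, since the window belongs to a start further downstream.
Gsta3: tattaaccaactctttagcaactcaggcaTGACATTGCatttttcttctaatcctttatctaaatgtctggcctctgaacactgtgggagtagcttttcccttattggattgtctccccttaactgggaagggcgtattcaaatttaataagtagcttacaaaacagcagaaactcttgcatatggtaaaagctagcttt
Gstm5: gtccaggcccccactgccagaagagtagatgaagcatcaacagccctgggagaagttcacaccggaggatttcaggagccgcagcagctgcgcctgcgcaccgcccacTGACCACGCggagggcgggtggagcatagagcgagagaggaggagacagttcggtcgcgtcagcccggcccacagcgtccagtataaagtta
Gstm7: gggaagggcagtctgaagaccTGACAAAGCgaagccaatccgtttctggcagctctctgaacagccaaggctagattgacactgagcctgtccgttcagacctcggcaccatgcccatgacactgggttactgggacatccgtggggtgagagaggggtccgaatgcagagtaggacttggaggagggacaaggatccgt
Mgst1: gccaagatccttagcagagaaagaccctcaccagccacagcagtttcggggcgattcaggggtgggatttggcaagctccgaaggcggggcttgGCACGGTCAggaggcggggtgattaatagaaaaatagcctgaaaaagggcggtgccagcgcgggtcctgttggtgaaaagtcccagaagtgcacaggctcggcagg

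The match was read on the strand of the gene in *Gsta3*, *Gstm5* and *Gstm7* and on the opposite strand in *Mgst1*. The 4 genes did not move in 1 direction, since *Gsta3*, *Gstm5* and *Gstm7* were lower and *Mgst1* higher in PBS than in UNT kidneys. A match is a description of letters and does not show that a factor binds there.

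Libraries held between 17603122 and 54981992 reads in genes. Levels are given as CPM, read counts relative to library sizes that were scaled by the trimmed mean of M values, and a gene was called when the adjusted p of the edgeR test was under 0.05. *Pkd2*, the deleted gene, had 98.0 to 215 CPM in PBS, 170.0 to 237 in RGLS4326 and 219.6 to 338 in UNT kidneys, so the ranges of PBS and UNT did not overlap and PBS lay below. All 12 proximal tubule markers were present in UNT kidneys and fell in PBS vs UNT (median log2 fold change −2.70). Their summed level was 16638 to 22993 CPM in UNT, 1501 to 5221 in PBS and 3316 to 5754 in RGLS4326 kidneys. In PBS vs UNT all 6 tested macrophage and all 6 fibroblast markers rose, as did 3 of 4 tested T cell and 5 of 6 collecting duct markers, and all 5 markers of the loop of Henle and distal tubule, 4 of 5 podocyte, 3 of 5 endothelial and 3 of 5 hepatocyte markers fell. The collecting duct marker *Atp6v1b1* (−0.66) fell, and the podocyte marker *Synpo* (0.83), the endothelial markers *Pecam1* (0.30) and *Cdh5* (0.50) and the hepatocyte marker *Fgb* (3.91) rose. Summed macrophage markers were 101 to 166, 806 to 2512 and 749.9 to 1534 CPM in the same order, summed T cell markers 3.14 to 5.76, 9.66 to 27.8 and 6.16 to 14.3 CPM, and summed fibroblast markers 509.6 to 1182, 2493 to 5278 and 3350 to 4908 CPM. In bulk tissue, fewer cells of a type and less RNA per cell cannot be told apart. Adrenal cortex markers summed to 1465 CPM in PBS replicate 11 and 790.1 in PBS replicate 2, against 1.28 to 46 CPM in the other 32 libraries, and calls that were lost without these 2 libraries are named beside the results. The adrenal gene *Cyp11b1* was at 0 in all 12 UNT libraries. Reads outside genes made up 5.18% to 9.0% of the reads in PBS, 4.94% to 12.0% in RGLS4326 and 9.84% to 11.3% in UNT libraries. PBS and UNT did not overlap in this percentage. A fit of PBS vs UNT that holds it cannot separate it from the group difference, so values from that fit are given only as a description. Reads that did not map uniquely made up 14.8% to 19.4% in PBS, 14.8% to 19.1% in RGLS4326 and 22.8% to 25.7% in UNT libraries, so that UNT lay apart, and their part in the differences from UNT, those of genes with shared sequence among them, was not tested.

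The comparison of PBS with UNT kidneys asks how conjugating enzymes differ between cystic and healthy kidney. Most of those that could be tested were lower in cystic kidneys, and the losses were deepest among UGT and SULT. Of the 62 members, 42 had enough reads to test, of which 27 fell (64.3%, against 39% of all 15644 tested genes), 7 rose (16.7%, against 43.1%) and 8 were not called. The median log2 fold change of the 42 was −0.73, and that of all tested genes was 0.04. By class, 11 of 19 cytosolic GST fell and 3 rose, 1 of 3 microsomal GST fell and 2 rose, all 7 UGT1 genes fell, 4 of 6 UGT2 and UGT3 genes fell and none rose, and 4 of 7 SULT fell and 2 rose. The levels of PBS and UNT kidneys did not overlap for 15 members that were lower in PBS (35.7%, against 19.8% of all tested genes) and for 6 that were higher (14.3%, against 22.7%).

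**Figure D1:**
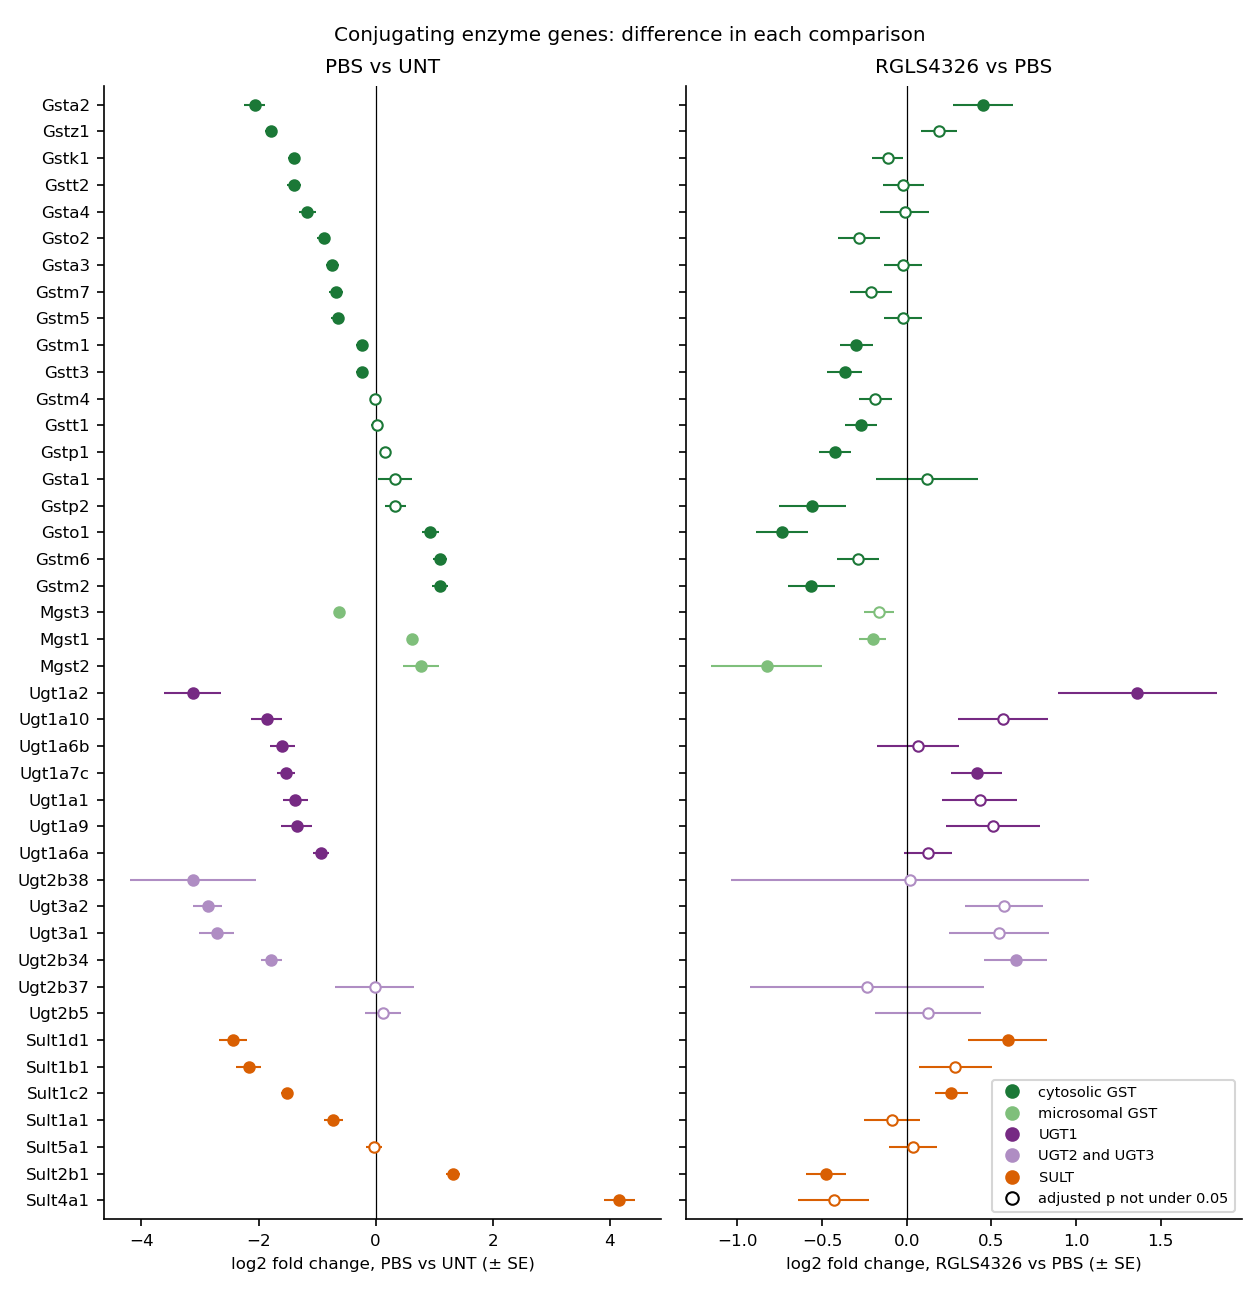
Log2 fold change with its standard error (horizontal axis) for each of the 42 tested conjugating enzyme genes (vertical axis), coloured by class, in PBS vs UNT (left, n = 11 and 12) and RGLS4326 vs PBS (right, n = 11 and 11). Filled points have an adjusted p under 0.05. On the left 27 genes lie below 0 and filled, among them all 7 of UGT1, and on the right 6 filled points lie above 0 and 10 below.

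Summed over its members, each class but the microsomal GST had less RNA in cystic kidneys. The summed level of UGT2 and UGT3 genes was 993 to 2074 CPM in UNT (median 1308) and 63.9 to 403 in PBS (median 212). UGT1 genes summed to 350.3 to 1051 CPM in UNT (median 626) and 47.3 to 273 in PBS (median 156), and SULT to 768 to 2619 (median 1175) and 191 to 515 (median 245). In these 3 classes the highest PBS kidney lay below the lowest UNT kidney. Cytosolic GST summed to 2244 to 2670 CPM in UNT (median 2409) and 1270.0 to 2118 in PBS (median 1447), again without overlap. Microsomal GST did overlap, with 184 to 249 CPM in UNT (median 221) and 203 to 288 in PBS (median 233). These sums follow the members with most reads, since *Ugt3a2* supplied a median of 86.8% of the UGT2 and UGT3 reads and *Sult1d1* 79.2% of the SULT reads of UNT kidneys.

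**Figure D2:**
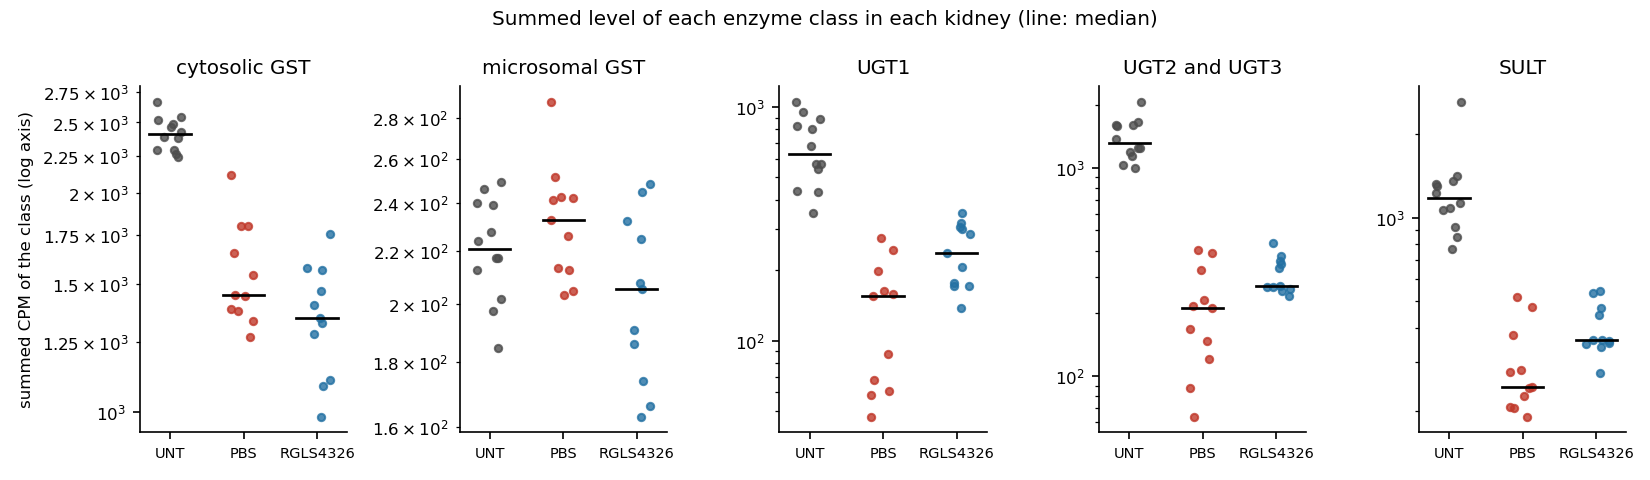
Summed CPM of all members of each class (vertical axis, logarithmic and scaled separately in each panel) in every kidney of the 3 groups (horizontal axis), with the group median as a line. Cystic PBS kidneys lie wholly below UNT kidneys in 4 of the 5 panels, and in the microsomal GST panel the groups overlap (medians 221 and 233 CPM).

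Among the cytosolic GST, *Gsta2*, *Gstz1*, *Gstk1* and *Gstt2* fell most, whereas *Gstm2*, *Gstm6* and *Gsto1* rose. Per kilobase of exon, the members with most reads in UNT kidneys were *Gsta2* (median 384 CPM per kilobase), *Gstm1* (291) and *Gstm5* (116). *Gsta2*, an alpha class GST, had 348 to 502 CPM in UNT kidneys (median 452) and 38.9 to 177 in PBS kidneys (median 110.1). No PBS kidney reached the lowest UNT kidney, and the log2 fold change was −2.07 ± 0.18 (SE, adjusted p = 9.9e-13). *Gsta2* supplied a median of 18.5% of the cytosolic GST reads in UNT and 6.27% in PBS kidneys. *Gstz1*, the zeta class enzyme that acts in tyrosine breakdown as maleylacetoacetate isomerase, had 300.1 to 406 CPM in UNT and 65.4 to 143 in PBS (−1.79 ± 0.11, adjusted p = 1.9e-17). *Gstk1*, the kappa class enzyme of mitochondria and peroxisomes, had 59.0 to 84.8 and 20.6 to 33.6 CPM (−1.40 ± 0.09, adjusted p = 2.3e-16). Neither gene overlapped between the groups.

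*Gstt2*, a theta class GST, fell from 173 to 351 CPM in UNT to 61.1 to 126 in PBS (log2 fold change −1.40 ± 0.12, adjusted p = 6.0e-13). Its neighbours on chromosome 10 did not follow it to the same extent. *Gstt3* had 62.8 to 80.7 CPM in UNT and 46.7 to 81.3 in PBS (−0.24 ± 0.10, adjusted p = 0.032), and this call was lost when any of PBS replicates 1, 3, 5, 6 or 7 was left out (adjusted p = 0.067 at most, without replicate 5). Its difference was −0.75 (adjusted p = 8.8e-08) with the percentage of reads outside genes in the fit and 0.04 in set 3 alone, 1 of 3 sets into which the library numbers divide the libraries. *Gstt1* had 88.6 to 116 CPM in UNT and 82.0 to 138 in PBS and was not called (0.02 ± 0.09, adjusted p = 0.88). The other alpha class genes that fell were *Gsta4*, which acts on lipid peroxidation products such as 4-hydroxynonenal (−1.17 ± 0.14, adjusted p = 3.1e-09), and *Gsta3* (−0.74 ± 0.11, adjusted p = 1.4e-07). *Gsta1* ranged from 0.267 to 1.29 CPM in UNT and 0.283 to 1.78 in PBS and was not called (0.33 ± 0.30, adjusted p = 0.30).

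The mu class cluster on chromosome 3 was split. *Gstm2* rose from 73.7 to 103 CPM in UNT (median 83) to 114 to 288 in PBS (median 192), without overlap (1.11 ± 0.14, adjusted p = 3.4e-09). *Gstm6*, at a lower level, rose from 1.36 to 2.34 CPM to 3.38 to 6.88 CPM (1.1 ± 0.13, adjusted p = 6.3e-10), also without overlap. With the percentage of reads outside genes in the fit, *Gstm2* was at 0.52 (adjusted p = 0.0040) and *Gstm6* at 0.71 (adjusted p = 0.00020), and *Gstm2* was at 0.60 in set 2. In the same cluster *Gstm5* fell (−0.65 ± 0.11, adjusted p = 1.9e-06), as did *Gstm7* (−0.68 ± 0.12, adjusted p = 4.2e-06, and −1.06 with that percentage in the fit), although in set 3 alone *Gstm7* was at −0.44 and not called (adjusted p = 0.091). *Gstm1*, the mu class member with most reads, had 405 to 506 CPM in UNT and 317 to 513 in PBS (−0.24 ± 0.10, adjusted p = 0.021), and its difference was −0.67 with that percentage in the fit and 0.09 among the libraries of set 3 alone. *Gstm4* was not called (−0.01 ± 0.09, adjusted p = 0.95). It passed the test as lower with that percentage in the fit (−0.34, adjusted p = 0.012) and as higher in set 3 alone (0.34, adjusted p = 0.047).

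The 2 omega class genes, which lie next to each other on chromosome 19, moved in opposite directions. *Gsto1*, whose enzyme reduces dehydroascorbate and methylated arsenic, had 82.4 to 114 CPM in UNT (median 95.3) and 116 to 348 in PBS (median 150.2), with every PBS kidney above every UNT kidney (0.94 ± 0.15, adjusted p = 7.7e-07). Its highest PBS values were 348 CPM in replicate 11 and 261 in replicate 9, and without the 2 libraries with adrenal markers its log2 fold change was 0.74 (adjusted p = 6.7e-06). With the percentage of reads outside genes added to the fit it was 0.34 and no longer called (adjusted p = 0.11). *Gsto2* fell from 1.70 to 2.82 CPM to 0.934 to 1.61 CPM (−0.89 ± 0.12, adjusted p = 1.1e-08). The pi class genes *Gstp1* (0.16 ± 0.09, adjusted p = 0.096) and *Gstp2* (0.34 ± 0.18, adjusted p = 0.091) were not called, although the second passed without PBS replicate 5 (adjusted p = 0.048). In the fit with the percentage of reads outside genes, *Gstp1* and *Gstt1* passed the test as lower in PBS, at −0.28 and −0.41. In set 3 alone *Gstp1* passed it in the other direction, as higher in PBS (0.45, adjusted p = 0.021).

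Microsomal GST are membrane enzymes that conjugate glutathione or reduce lipid hydroperoxides. *Mgst1* rose and *Mgst3* fell, so that their order by reads was exchanged. *Mgst1* had 76.3 to 121 CPM in UNT (median 99.1) and 136 to 189 in PBS (median 151), without overlap (0.63 ± 0.08, adjusted p = 3.6e-09). *Mgst3* had 98.3 to 136 CPM in UNT (median 123.3) and 65.4 to 98.2 in PBS (median 77.2), where the highest PBS kidney lay just under the lowest UNT kidney (−0.63 ± 0.08, adjusted p = 2.7e-08). With the percentage of reads outside genes in the fit, *Mgst1* was at 0.38 and *Mgst3* at −0.99, both still called. *Mgst1* supplied a median of 44% of the microsomal GST reads in UNT and 66% in PBS kidneys. *Mgst2*, at 0.0561 to 0.609 CPM in UNT and 0.0783 to 1.26 in PBS, was also called higher (0.77 ± 0.31, adjusted p = 0.022). Its highest value was that of PBS replicate 11, and without that library its log2 fold change was 0.48 (adjusted p = 0.12). It was 0.42 (adjusted p = 0.20) without both libraries with adrenal markers and 0.05 (adjusted p = 0.94) with the percentage of reads outside genes in the fit.

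All 7 tested genes of the UGT1 locus fell. These enzymes glucuronidate bilirubin, phenols and many drugs. Per kilobase of exon not shared with other genes, *Ugt1a2* (median 444 CPM per kilobase), *Ugt1a10* (177) and *Ugt1a7c* (52.1) had the most reads in UNT kidneys. *Ugt1a2* had 92.2 to 639 CPM in UNT (median 399.7) and 3.76 to 111 in PBS (median 40.3), with a log2 fold change of −3.13 ± 0.49 (adjusted p = 5.2e-07). The ranges overlapped, and UNT kidneys themselves were spread widely. PBS kidneys were spread as well, with 3.76 to 7.6 CPM in 4 of them, PBS replicates 2, 3, 4 and 9, and 22.3 to 111 in the other 7. *Ugt1a2* supplied a median of 59.3% of the UGT1 reads in UNT and 25.5% in PBS kidneys.

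*Ugt1a10* fell from 101 to 271 CPM in UNT (median 168) to 14.9 to 99.2 in PBS (median 55.6; −1.86 ± 0.27, adjusted p = 9.4e-08), and *Ugt1a7c* from 57.4 to 152 CPM to 22.0 to 52.0 CPM (−1.53 ± 0.15, adjusted p = 1.9e-11). Neither overlapped between the groups. The remaining UGT1 genes had few reads. *Ugt1a1*, the bilirubin-conjugating enzyme, had 3.13 to 8.65 CPM in UNT and 0.934 to 3.84 in PBS (−1.37 ± 0.22, adjusted p = 4.9e-07). *Ugt1a9* fell by 1.35 (SE 0.27, adjusted p = 2.2e-05), *Ugt1a6a* by 0.93 (SE 0.14, adjusted p = 1.5e-07) and *Ugt1a6b* by 1.60 (SE 0.21, adjusted p = 2.3e-08) on the log2 scale, each with overlapping ranges.

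In the UGT2 and UGT3 families the 2 genes of the UGT3 cluster on chromosome 15 and *Ugt2b34* fell without overlap. UGT3 enzymes use sugars other than glucuronic acid. *Ugt3a2*, the UGT gene with most reads in UNT kidneys, had 879 to 1693 CPM in UNT (median 1158) and 49.6 to 348 in PBS (median 162), a log2 fold change of −2.87 ± 0.24 (adjusted p = 4.2e-13). Its neighbour *Ugt3a1* had 32.6 to 131 CPM in UNT (median 66.4) and 2.20 to 25.6 in PBS (median 7.85; −2.72 ± 0.30, adjusted p = 3.4e-10). *Ugt2b34* had 55.2 to 122 CPM in UNT and 8.73 to 37.1 in PBS (−1.78 ± 0.19, adjusted p = 7.5e-11). Per kilobase, the 3 had medians of 373, 24.9 and 17.1 CPM in UNT kidneys.

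The other UGT2B genes were spread widely within groups. *Ugt2b38* was at 0 to 0.0218 CPM in 3 UNT kidneys and at 9.89 to 163 in the other 9, and it was under 0.1 CPM in 6 of 11 PBS and 7 of 11 RGLS4326 kidneys and at 7.38 to 23.1 CPM in the rest of those groups. No library lay between 0.0804 and 7.38 CPM. Its log2 fold change in PBS vs UNT was −3.12 ± 1.08 (adjusted p = 0.0087), but −1.93 (adjusted p = 0.086) with the level of the Y-linked gene *Ddx3y* as a covariate and −1.28 (adjusted p = 0.42) with the percentage of reads outside genes. *Ugt2b37* (−0.01 ± 0.67, adjusted p = 0.99) and *Ugt2b5* (0.13 ± 0.31, adjusted p = 0.70) were not called. With the *Ddx3y* covariate *Ugt2b37* passed the test as higher in PBS (1.33, adjusted p = 0.026). In libraries with *Ddx3y* reads its level was 51.9 to 87.9 CPM in UNT and 20.3 to 47.1 in PBS, so this covariate also differed between these groups.

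The SULT with high levels in UNT kidneys fell, and 2 SULT with low levels rose. *Sult1d1*, which sulfates catecholamines and phenols, had 526 to 2285 CPM in UNT (median 937) and 101 to 391 in PBS (median 139.7), without overlap (−2.44 ± 0.24, adjusted p = 2.2e-11). Its difference was −1.50 (adjusted p = 0.0052) in set 2 alone and −3.00 in each of sets 1 and 3. *Sult1b1*, its neighbour on chromosome 5 that acts on thyroid hormones and phenols, had 6.37 to 16.8 CPM in UNT and 0.642 to 3.21 in PBS (−2.17 ± 0.21, adjusted p = 1.4e-11). *Sult1c2* had 146 to 219 CPM in UNT and 41.8 to 86.3 in PBS (−1.52 ± 0.10, adjusted p = 2.0e-16). Both groups were again apart for these genes. *Sult1a1*, the phenol sulfotransferase, had 33.0 to 94.1 CPM in UNT and 21.3 to 48.3 in PBS (−0.72 ± 0.16, adjusted p = 0.00015), with overlap, and was not called in set 2 alone (−0.59, adjusted p = 0.066). Per kilobase, *Sult1d1* (median 381 CPM), *Sult1c2* (97.9) and *Sult1a1* (37.8) had the most reads in UNT kidneys.

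*Sult2b1*, the cholesterol and hydroxysteroid sulfotransferase of epithelia, rose from 0.895 to 1.83 CPM in UNT to 2.60 to 4.22 in PBS (1.32 ± 0.12, adjusted p = 2.3e-12). *Sult4a1*, best known from brain, rose from 0.0219 to 0.177 CPM in UNT to 0.759 to 2.73 in PBS (4.16 ± 0.27, adjusted p = 2.8e-16). It had the highest fold change of the 42 tested members in this comparison and remained at a low level. Both genes were apart between the groups. *Sult5a1* was not called (−0.03 ± 0.14, adjusted p = 0.83).

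**Figure D3:**
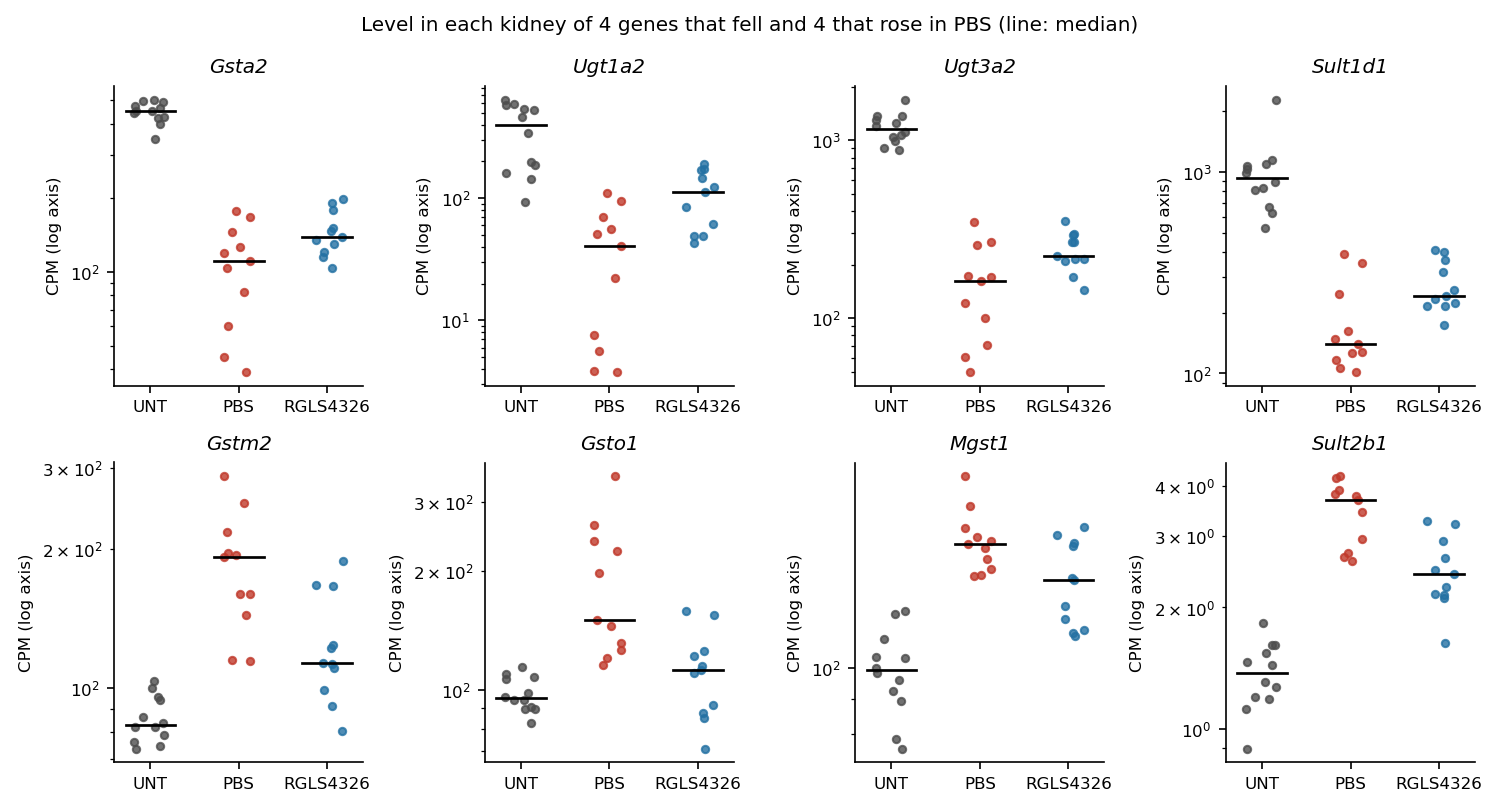
CPM in every kidney (vertical axis, logarithmic and scaled separately in each panel) by group (horizontal axis) for 4 genes that fell in PBS vs UNT (*Gsta2*, *Ugt1a2*, *Ugt3a2* and *Sult1d1*, top) and 4 that rose (*Gstm2*, *Gsto1*, *Mgst1* and *Sult2b1*, bottom), with the group median as a line. RGLS4326 medians lie between those of PBS and UNT in all 8 panels, and the ranges of RGLS4326 and PBS kidneys overlap in each.

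The comparison of RGLS4326 with PBS asks whether treatment of cystic mice changed these genes. The difference was smaller in size than that between PBS and UNT for 33 of the 42 tested members. Of the 16 members called here it was larger for 6, which were *Gstm1*, *Gstp1*, *Gstp2*, *Gstt1*, *Gstt3* and *Mgst2*. No member was apart between the groups, in either direction (0 of 42, against 0.0447% of all tested genes higher and 0.0192% lower). Of the 42 tested members, 6 were higher in RGLS4326 kidneys (14.3%, against 15.3% of all tested genes) and 10 were lower (23.8%, against 18.5%). Both shares were near those of all tested genes. Both comparisons use the same PBS mice, so their values are not independent.

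The genes that were higher with treatment were the UGT genes *Ugt1a2*, *Ugt1a7c* and *Ugt2b34*, the sulfotransferases *Sult1d1* and *Sult1c2*, and *Gsta2*. *Ugt1a2* had 3.76 to 111 CPM in PBS (median 40.3) and 42.8 to 191 in RGLS4326 kidneys (median 112), a log2 fold change of 1.36 ± 0.47 (adjusted p = 0.026). The 4 PBS kidneys under 8 CPM had no counterpart among the treated kidneys. All 4 were among the 6 PBS kidneys with reads of the Y-linked gene *Ddx3y*, and 1 of them, PBS replicate 2, was a library with adrenal markers. *Ugt2b34* had 8.73 to 37.1 CPM in PBS and 23.4 to 43.6 in RGLS4326 kidneys (medians 22.4 and 36.3; 0.64 ± 0.19, adjusted p = 0.011). These 2 genes passed the test with each single library left out in turn, but *Ugt1a2* was not called without both PBS libraries with adrenal markers (1.17, adjusted p = 0.077).

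*Sult1d1* had 101 to 391 CPM in PBS and 174 to 409 in RGLS4326 kidneys (medians 139.7 and 243; 0.60 ± 0.23, adjusted p = 0.046), *Sult1c2* 41.8 to 86.3 and 65.5 to 86.4 (0.26 ± 0.10, adjusted p = 0.036), *Ugt1a7c* 22.0 to 52.0 and 31.9 to 65.2 (0.41 ± 0.15, adjusted p = 0.034) and *Gsta2* 38.9 to 177 and 104 to 197 (0.45 ± 0.18, adjusted p = 0.049). For each of them the lowest treated kidney lay above the lowest PBS kidney, and the ranges overlapped. These 4 calls lay near the threshold. They held in 20, 26, 25 and 9 of the 34 fits that each left out 1 library, with adjusted p up to 0.087 (without RGLS4326 replicate 9), 0.076 (without PBS replicate 11), 0.064 (without PBS replicate 2) and 0.092 (without PBS replicate 4). *Gsta2* was lost also when any 1 UNT library was left out, with its difference still at 0.45 (adjusted p from 0.0501 to 0.0526). Without both PBS libraries with adrenal markers none of the 4 was called (*Sult1d1* 0.47, adjusted p = 0.14, *Sult1c2* 0.16, adjusted p = 0.15, *Ugt1a7c* 0.34, adjusted p = 0.11, and *Gsta2* 0.32, adjusted p = 0.15). *Ugt3a2*, lower in PBS than in UNT kidneys, was at 49.6 to 348 CPM in PBS and 144 to 351 in RGLS4326 kidneys and missed the threshold (0.57 ± 0.23, adjusted p = 0.052), but passed it in 7 of these fits.

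Of the 10 genes that were lower with treatment, 7 were among the 19 tested cytosolic GST, 2 among the 3 microsomal GST and 1 among the 7 SULT. Of all tested genes 18.5% were lower. Summed cytosolic GST were at 985.5 to 1758 CPM in RGLS4326 (median 1347) and 1270.0 to 2118 in PBS kidneys (median 1447), while median sums were 237 and 156 for UGT1, 270.0 and 212 for UGT2 and UGT3, and 360.3 and 245 for SULT in the same order, with overlapping ranges throughout. *Gsto1* had 116 to 348 CPM in PBS (median 150.2) and 71.1 to 159 in RGLS4326 kidneys (median 112; −0.74 ± 0.15, adjusted p = 0.0021), and −0.54 (adjusted p = 0.017) without the 2 PBS libraries with adrenal markers. *Gstm2* had 114 to 288 CPM in PBS (median 192) and 80.6 to 189 in RGLS4326 kidneys (median 113; −0.56 ± 0.14, adjusted p = 0.0051). *Sult2b1* had 2.60 to 4.22 and 1.64 to 3.28 CPM (−0.48 ± 0.12, adjusted p = 0.0055). *Gstp1*, the pi class GST found in many epithelia, had 43.4 to 75.7 CPM in PBS and 32.1 to 55.5 in RGLS4326 kidneys (−0.42 ± 0.09, adjusted p = 0.0031), *Gstt3* 46.7 to 81.3 and 35.7 to 67.4 (−0.37 ± 0.10, adjusted p = 0.010) and *Gstm1* 317 to 513 and 197 to 415 (−0.30 ± 0.10, adjusted p = 0.020). These 6 genes passed with each single library left out in turn.

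The remaining 4 calls were less firm. *Gstt1* (−0.27 ± 0.09, adjusted p = 0.027) was lost without PBS replicate 9 or 11 or RGLS4326 replicate 5 or 7 (adjusted p up to 0.067), and *Gstp2* (−0.56 ± 0.20, adjusted p = 0.029) without PBS replicate 1 or 9 or RGLS4326 replicate 5, 6 or 7 (adjusted p up to 0.070). *Mgst1* (−0.20 ± 0.08, adjusted p = 0.046) held in 19 of the 34 fits and *Mgst2* (−0.83 ± 0.33, adjusted p = 0.049) in 12, with adjusted p up to 0.11 (without PBS replicate 9) and 0.18 (without PBS replicate 11). None of these 4 was called without both PBS libraries with adrenal markers (*Gstt1* −0.23, adjusted p = 0.092, *Gstp2* −0.55, adjusted p = 0.060, *Mgst1* −0.20, adjusted p = 0.088, and *Mgst2* −0.47, adjusted p = 0.27). Genes of the same list that were not called included *Gstz1* (0.19 ± 0.10, adjusted p = 0.15), *Ugt3a1* (0.54 ± 0.29, adjusted p = 0.14), *Ugt1a10* (0.57 ± 0.27, adjusted p = 0.089) and *Gstk1* (−0.11 ± 0.09, adjusted p = 0.33).

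The library numbers in the names of the deposited tables start again at low numbers, which divides the libraries into 3 sets that each hold all groups (3 or 4 mice per group). Within sets the 16 treatment calls kept their direction in all 3 sets for 15 genes, the exception being *Gstm1* (0.07 in set 1, −0.36 in set 2 and −0.58 in set 3). *Sult1d1* differed by 1.21, 0.13 and 0.72 in sets 1, 2 and 3, *Ugt1a2* by 1.79, 1.14 and 1.22, and *Gsto1* by −0.68, −0.71 and −0.88. Few passed the test within a set, with 1 member higher and 0 lower in set 1, where edgeR called 54 genes of all tested, and 0 and 6 in set 2. The count over all genes in set 2 is not given here, so its 6 calls are not read as a result about the members. In set 3 the counts were 0 and 0, edgeR called 0 genes of all tested, and 11 members had an unadjusted p under 0.05. In set 2 the percentage of reads outside genes was apart between the groups, at 11.3% to 12.0% in RGLS4326 and 5.49% to 9.0% in PBS libraries, and it overlapped in set 1 (4.94% to 8.38% and 5.18% to 7.24%) and set 3 (6.14% to 11.7% and 5.67% to 6.65%). With this percentage added to the fit edgeR called 0 of the 42 members and 89 of all genes, 12 members had an unadjusted p under 0.05, and all 16 kept their sign, with the lowest adjusted p at 0.094 for *Sult1c2*. The differences of *Gstm1* (−0.10), *Gstt1* (−0.07), *Mgst1* (−0.08) and *Gstt3* (−0.13) shrank most relative to their size, while those of *Ugt1a2* (1.33), *Gsta2* (0.52), *Sult1c2* (0.35) and *Ugt1a7c* (0.48) were near their values above or larger. The part of this percentage in the treatment calls was not tested further. Without the 2 PBS libraries with adrenal markers, 1 member was higher (*Ugt2b34*, 0.55, adjusted p = 0.044) and 6 were lower. The other 9 treatment calls were lost, with the values given above.

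**Figure D4:**
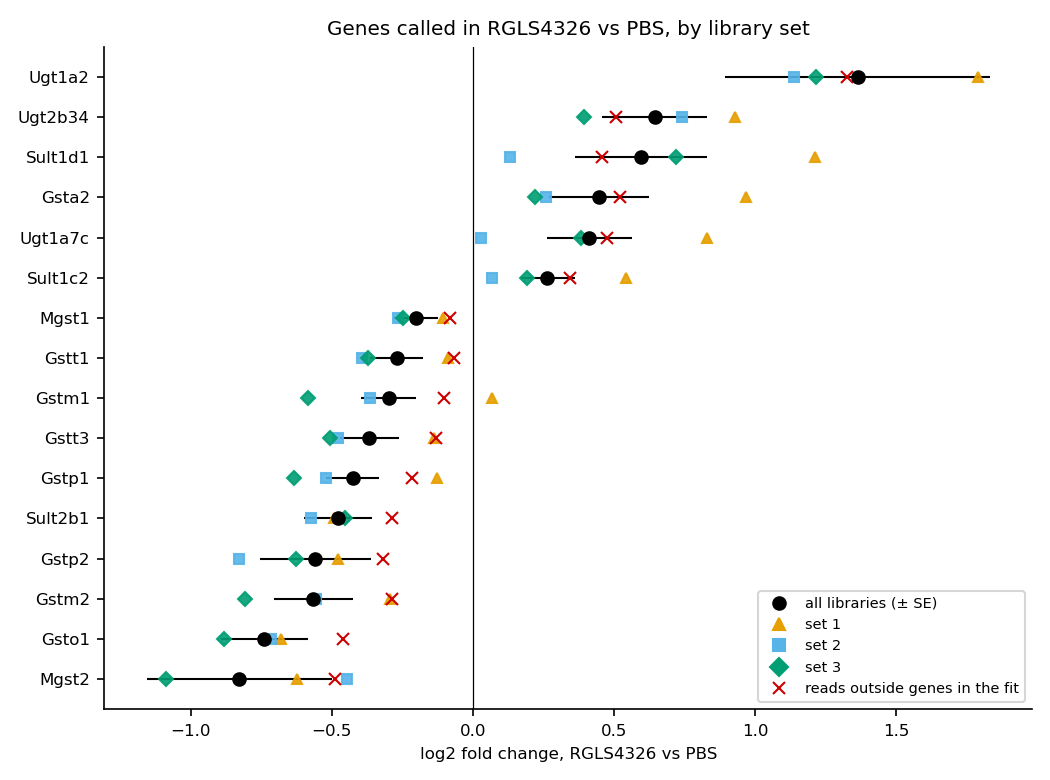
Log2 fold change in RGLS4326 vs PBS (horizontal axis) for the 16 members called in that comparison (vertical axis), from all libraries with the standard error (black), from each library set alone (triangles, squares and diamonds) and with the percentage of reads outside genes added to the fit (crosses). All points of a gene lie on 1 side of 0 except for *Gstm1*, whose set 1 value is 0.07.

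Treatment calls also moved with markers of cell types. Of the 12 proximal tubule markers, 8 rose with treatment and 0 fell (median log2 fold change 0.62), and 4 of 5 markers each of the loop of Henle and distal tubule (median 0.56), of podocytes (0.27) and of endothelium (0.22) rose and 0 fell. Of the 6 fibroblast markers 1 rose and 0 fell, as for 1 of the 5 hepatocyte markers. Of the 6 collecting duct markers 3 fell and 0 rose (median −0.45). Of the 6 tested macrophage markers 4 fell and 0 rose (median −0.47), and of the 4 tested T cell markers 3 fell and 0 rose (median −0.69). The values of these lists stand beside those of *Ugt1a2*, *Ugt2b34* and *Sult1d1*, which rose, and of *Gsto1*, *Gstm2* and *Gstp1*, which fell, and their part in these differences was not tested.

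Treated kidneys still differed from UNT kidneys in most of these genes. In RGLS4326 vs UNT, 29 of the 42 tested members were lower (69%, against 36.9% of all tested genes) and 5 were higher (11.9%, against 40.8%). The deepest differences after that of *Ugt2b38* were those of *Ugt3a2* (−2.29 ± 0.24, adjusted p = 8.4e-11), *Ugt3a1* (−2.17 ± 0.30, adjusted p = 3.5e-08), *Sult1b1* (−1.88 ± 0.21, adjusted p = 4.6e-10) and *Sult1d1* (−1.84 ± 0.24, adjusted p = 1.1e-08). *Ugt2b38* was at −3.10 ± 1.09 (adjusted p = 0.010), but this value moved widely, being −10.6 (adjusted p = 0.0019) in set 1, −0.34 (adjusted p = 0.84) in set 2, −3.90 (adjusted p = 0.072) in set 3 and −2.46 (adjusted p = 0.029) with the *Ddx3y* covariate. The 5 that were higher were *Gstm2*, *Gstm6*, *Mgst1*, *Sult2b1* and *Sult4a1*, with log2 fold changes from 0.43 to 3.73. The call of *Gstm2* (0.54) was lost with the percentage of reads outside genes in the fit (0.24, adjusted p = 0.069). In set 2 alone *Gstm2* (0.05, adjusted p = 0.84), *Mgst1* (0.15, adjusted p = 0.29) and *Sult2b1* (0.50, adjusted p = 0.061) were not called. *Gsto1*, called in both other comparisons, was not called here (0.20 ± 0.15, adjusted p = 0.23), with 71.1 to 159 CPM in RGLS4326 and 82.4 to 114 in UNT kidneys. *Gstp1* (−0.26 ± 0.09, adjusted p = 0.011) and *Gstt1* (−0.25 ± 0.09, adjusted p = 0.012), not called in PBS vs UNT, were lower in RGLS4326 than in UNT kidneys. Neither was called in set 3 alone (−0.19, adjusted p = 0.33, and −0.11, adjusted p = 0.56), nor *Gstt1* in set 1 (−0.25, adjusted p = 0.058). Members called lower that missed the threshold in a set were also *Ugt1a1*, *Ugt1a2*, *Ugt1a6a*, *Ugt1a9* and *Ugt1a10* in set 1 (adjusted p from 0.080 to 0.22) and *Ugt1a9* and *Ugt2b34* in set 2 (0.21 and 0.094).

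Genes that supply or use the donors of these enzymes were mostly lower in cystic kidneys as well. Of 23 genes that supply or use glutathione, UDP-glucuronate or PAPS, 22 were tested, of which 14 fell and 4 rose in PBS vs UNT (against 39% and 43.1% of all tested genes), and 6 rose and 3 fell in RGLS4326 vs PBS (against 15.3% and 18.5%). For glutathione, 7 of 10 fell and 2 rose in PBS vs UNT. *Ggt1*, the brush border enzyme that begins glutathione breakdown, went from 625 to 863 CPM in UNT to 89.6 to 267 in PBS (−2.10 ± 0.14, adjusted p = 3.0e-16), and *Gclc*, the catalytic subunit of the rate-limiting enzyme of glutathione synthesis, from 201 to 570.4 CPM to 112 to 225 (−1.09 ± 0.17, adjusted p = 4.1e-07). The 2 that rose were *Slc7a11*, the cystine carrier (1.87 ± 0.24, adjusted p = 8.0e-09), and *Chac1*, which degrades glutathione (1.26 ± 0.20, adjusted p = 5.8e-07). *Chac1* was lower with treatment (−0.79 ± 0.20, adjusted p = 0.0062).

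For UDP-glucuronate, *Ugp2* (−0.93 ± 0.09), *Ugdh* (−0.53 ± 0.07) and the carrier *Slc35d1* (−1.26 ± 0.10) fell in PBS vs UNT (adjusted p of 1.3e-08 or less), while *Gusb*, the glucuronidase that removes glucuronic acid, rose from 26.8 to 34.9 CPM to 74.0 to 112 (1.61 ± 0.08, adjusted p = 5.4e-20). For sulfate, *Papss2*, which makes PAPS, had 367 to 558 CPM in UNT and 66.0 to 171 in PBS (−2.13 ± 0.16, adjusted p = 6.0e-15) and was higher with treatment (0.46 ± 0.15, adjusted p = 0.020), whereas the other PAPS synthase gene *Papss1* was not called in either comparison (−0.06 ± 0.06, adjusted p = 0.34, and −0.09 ± 0.06, adjusted p = 0.26).

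Regulators of these enzymes were divided, with 6 of 11 lower and 4 higher in PBS vs UNT (against 39% and 43.1% of all tested genes). *Hnf4a* (−1.49 ± 0.13, adjusted p = 4.0e-13), *Ppara* (−1.62 ± 0.16, adjusted p = 3.7e-11) and the xenobiotic receptors *Nr1i2* (−1.36 ± 0.13, adjusted p = 1.3e-11) and *Nr1i3* (−2.89 ± 0.29, adjusted p = 2.9e-11) fell. *Nfe2l2* (0.69 ± 0.06, adjusted p = 2.2e-13), its inhibitor *Keap1* (0.42 ± 0.06, adjusted p = 3.1e-07) and the aryl hydrocarbon receptor *Ahr* (0.99 ± 0.09, adjusted p = 5.0e-12) rose. With treatment, *Ppara* was higher (0.61 ± 0.16, adjusted p = 0.0081) and *Keap1* lower (−0.25 ± 0.07, adjusted p = 0.0065).

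Some UGT genes differed within the UNT group between kidneys with and without reads of *Ddx3y*, a gene of the Y chromosome. *Ddx3y* was at 20.3 to 87.9 CPM in 17 libraries and at 0.0268 CPM or less in the other 17, with 6 UNT, 6 PBS and 5 RGLS4326 libraries among the former. The labels used here do not give the sex of the mice, so the split is one of the data and is described without a test. In UNT kidneys the ranges were apart for 3 of the 42 tested members (against 0.55% of all tested genes). *Ugt1a2* was at 92.2 to 339 CPM in the 6 UNT kidneys with *Ddx3y* reads and at 460.3 to 639 in the 6 without. *Ugt2b37* was at 2.25 to 54.9 CPM in those with and 0.279 to 1.28 in those without, and *Ugt2b38* at 15.7 to 163 and 0 to 15.3.

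In PBS kidneys 0 members were apart in this way (against 0.313% of all tested genes). *Ugt2b37* there had 2.82 to 33.2 CPM in kidneys with and 2.55 to 14.9 in kidneys without *Ddx3y* reads, so that PBS kidneys without these reads all lay above the highest UNT kidney without them (1.28 CPM). In RGLS4326 kidneys, split into 5 with and 6 without, 3 members were apart (against 0.786% of all tested genes), which were *Ugt2b37* (9.04 to 28 with and 0.804 to 8.48 CPM without), *Ugt2b5* (1.96 to 3.76 and 0.804 to 1.71) and *Gstp2* (0.178 to 0.399 and 0.403 to 0.75). Both other groups hold libraries of both kinds, and with *Ddx3y* as a covariate 26 members fell and 8 rose in PBS vs UNT.

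**Figure D5:**
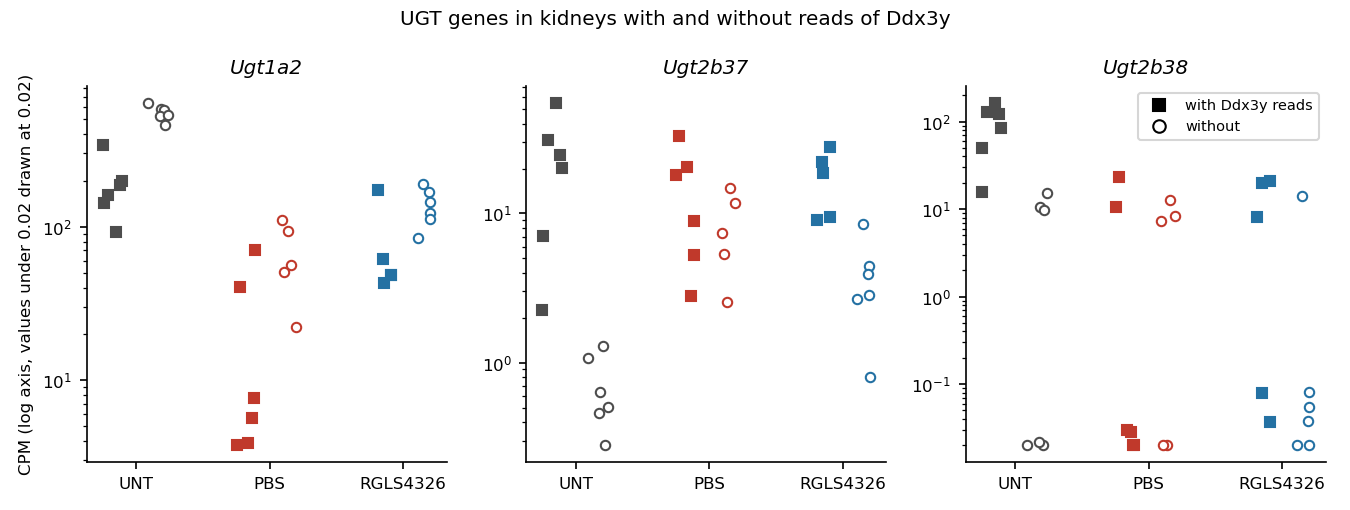
CPM of *Ugt1a2*, *Ugt2b37* and *Ugt2b38* (vertical axis, logarithmic and scaled separately, with values under 0.02 drawn at 0.02) by group (horizontal axis), in kidneys with reads of *Ddx3y* (filled squares) and without (open circles). In UNT kidneys the squares and circles separate in each panel, with *Ugt1a2* higher in kidneys without and both UGT2B genes higher in kidneys with these reads.

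The other 20 members had too few reads to test and are listed only. They were *Gstm3* and *Gstt4* of the cytosolic GST, *Ugt1a5*, the UGT2 genes *Ugt2a1*, *Ugt2a2*, *Ugt2a3*, *Ugt2b1*, *Ugt2b35* and *Ugt2b36*, and the sulfotransferases *Sult1c1*, *Sult1e1*, *Sult2a1* to *Sult2a7*, *Sult3a1* and *Sult6b1*. *Ugt2a3* reached 51 reads in a library and the others 15 or fewer. No read was counted for *Sult2a4*, *Sult2a6*, *Sult2a7* and *Ugt2a2* in any library. A member that passed the filter on low counts may have done so through the group in which it was high, as for *Sult4a1*, so the counts above describe the 42 tested genes and not all 62.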

How the data were processed

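Libraries were prepared with a stranded mRNA kit, sequenced as paired ends, trimmed with Trim Galore, mapped with STAR to GRCm38 (mm10) and counted with HTSeq 0.6.1 (version per the submitters' processing notes). The annotation and strand setting of the counting are not given in the sources used here. The authors deposited a table of raw counts by gene symbol for each mouse, without normalization or pooling. The groups follow the labels, which name each mouse as a separate sample.

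Counts were scaled by TMM, filtered with filterByExpr (15644 genes left) and tested in 1 fit of all 34 libraries with edgeR 4.0.16 in R 4.3.3 (quasi-likelihood test, two-sided), with 3 groups, no covariate and Benjamini-Hochberg adjustment over all tested genes. SE is that of the log2 fold change. CPM per kilobase used the exon bases that no other gene shares in GENCODE M21, and shared stretches were counted from its transcripts. Python 3.11.15, pandas 2.3.3 and matplotlib 3.10.9 were used for summaries and figures. Within each class the text names the members with the largest differences (6 per direction) in PBS vs UNT, those called in RGLS4326 vs PBS, and the 3 with most reads per kilobase. *Gsta1*, *Gsta3*, *Gstm4*, *Gstm7*, *Sult5a1*, *Ugt1a6a*, *Ugt2b37* and *Ugt2b5* fall outside this rule and were added after their values were seen, so that every member is accounted for. The members, marker lists and tests were chosen with earlier results of these data known. The procedure was tested on simulated counts. Alternatives were DESeq2 (version 1.42.0), other size factors, no filter, covariates, library sets and left-out libraries. Libraries held 17603122 to 54981992 reads in genes, and the standard errors cover counting error and spread between mice together. Some planned results on regulators and on a second promoter motif are not reported here.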

Additional observations from a re-analysis of the deposited data

How the results depend on the processing

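Counts of members called in PBS vs UNT (7 higher and 27 lower) and in RGLS4326 vs UNT (5 and 29) stayed within 1.5 times their value under every alternative run, with 5 to 9 higher and 23 to 31 lower in PBS vs UNT. Counts in RGLS4326 vs PBS (6 higher and 10 lower) did not. They were 0 and 0 with the percentage of reads outside genes added to the fit, 1 and 0 in library set 1, 0 and 6 in set 2, 0 and 0 in set 3, 3 and 4 at an absolute log2 fold change above 0.5, and 1 and 6 without PBS replicates 2 and 11 together, an alternative chosen after seeing the data. A fit of only the 2 groups compared gave 3 higher and 8 lower. Leaving out 1 library at a time gave 2 to 8 higher (2 without PBS replicate 2, 3, 4 or 11 or RGLS4326 replicate 1, and 3 without PBS replicate 9 or RGLS4326 replicate 2 or 6) and 6 to 11 lower (6 without PBS replicate 9 or RGLS4326 replicate 5 or 7). Single sets hold fewer samples, and the cause of the other changes was not tested. With the replicate number as a block, 8 were higher and 9 lower in RGLS4326 vs PBS, 6 and 27 in PBS vs UNT, and 5 and 30 in RGLS4326 vs UNT. Kidneys of the same number did not deviate together, with a median correlation of 0.05 between PBS and RGLS4326 pairs (-0.24 to 0.45, 11 pairs), so the numbers were not taken as pairs.

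Differences that changed sign while called in either fit were those of *Gstm1* in PBS vs UNT in set 3 (0.086) and in RGLS4326 vs PBS in set 1 (0.068), *Gstm4* (0.34) and *Gstt3* (0.043) in PBS vs UNT in set 3, *Gstp1* (-0.28) and *Gstt1* (-0.41) in PBS vs UNT with the percentage of reads outside genes in the fit, and *Ugt2b37* in PBS vs UNT in set 2 (2.41) and with the *Ddx3y* covariate (1.33) and in RGLS4326 vs UNT in set 2 (2.91). Depth limits the 20 untested members and those with few reads, such as *Gsta1*, *Gstp2*, *Mgst2*, *Sult4a1* and *Ugt1a6b*, and sequence shared between copies limits *Gsta1*, *Gsta2*, *Gstp1*, *Gstp2*, *Ugt2b5*, *Ugt2b38* and the UGT1 genes.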
